A study of Mus musculus with 16 samples.

Results

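The genes for the proteins of the cytosolic ribosome were followed in lung endothelial cells (ECs) of young and aged mice, with and without bleomycin injury. They were chosen by name alone: protein-coding genes called Rpsa, Rplp0, Rplp1 or Rplp2, or whose name begins with Rpl or Rps and a digit, without the Rps6k kinases and without names marked as pseudogenes. The rule took 87 of the 43346 genes in the count table, of which 22032 were protein coding. Of the 87 genes, 52 carry a large-subunit name and 35 a small-subunit name. In 84 of them the mean normalized count over the 16 libraries was at least 50, and counts of calls and medians of differences are over those 84. Shares of counts and overlaps with other genes are over the 87, and promoter matches over the 66 with a promoter entry. A normalized count is the read count of a gene divided by a library's DESeq2 size factor. The other 3 genes were the paralogs Rpl10l, with no count in any library, Rpl39l, with at most 2.83 normalized counts in a library, and Rpl3l, with at most 16.6.

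The libraries came from FVB mice that all carried a Col1a1-GFP transgene, in which the collagen promoter makes collagen-producing cells green. ECs were sorted by flow cytometry as CD31+ cells that were negative for CD45, EpCAM and GFP, a gate against leukocytes, epithelial and collagen-producing cells. Red blood cells were lysed before the sort, which also excluded debris and used no antibody against platelets or red cells. Markers of several of these cells were nevertheless present, as given at the end. Mice were 2 months (young) or 18 months (aged) of age and received PBS (Sham) or bleomycin (Bleo), a DNA-damaging drug that injures the lung and is followed by fibrosis, into the trachea 30 days before the lungs were taken. There were 5 Young Sham libraries (numbers 21 to 25), 4 Young Bleo libraries (17 to 20), 3 Aged Sham libraries (13 to 15) and 4 Aged Bleo libraries (1, 2, 3 and 5), each from 1 mouse. The comparisons ask what injury does to the EC transcriptome at each age, with Young Sham as the common reference. All 12 endothelial markers looked at, such as Pecam1 and Cdh5, were detected, and their summed normalized counts were 797438 to 888694 in Young Sham and 736210.0 to 812526 in Aged Sham. The sum was lower in every injured library than in every Young Sham library, at 619544 to 766177 in Young Bleo and 614404 to 755272 in Aged Bleo. The study names female and male mice, whereas every library here held counts of the Y-linked genes Eif2s3y, Ddx3y, Kdm5d and Uty and at most 23 counts of Xist.

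A ribosome is built from ribosomal RNA and about as many different proteins as the list has genes, most of them in equal numbers, so cells tend to make these proteins in step. Their mRNAs belong to the terminal oligopyrimidine class, which begins with a C and an unbroken stretch of C and T and whose translation is held by Larp1 and released by the kinase complex mTORC1. Ribosome production is known to rise with growth and proliferation and to be driven by Myc family factors.

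Ribosomal protein genes took a larger share of the counts in 3 of the 4 Young Bleo libraries than in any Young Sham library. In Young Sham the share was 0.740%, 0.631%, 0.802%, 0.8293% and 0.746% for libraries 21 to 25, with a mean of 0.7498% ± 0.0760 (SD, n = 5). In Young Bleo it was 1.33%, 1.37%, 1.40% and 0.762% for libraries 17 to 20, with a mean of 1.22% ± 0.305 (SD, n = 4). Libraries 17, 18 and 19 stood close together, and library 20 was within the Young Sham range. In Aged Sham the share was 1.40%, 0.728% and 0.687% for libraries 13 to 15, with a mean of 0.938% ± 0.400 (SD, n = 3). Library 13 alone was as high as the Young Bleo libraries, and without it the Aged Sham mean was 0.707%. In Aged Bleo the share was 1.13%, 1.41%, 0.799% and 0.982% for libraries 1, 2, 3 and 5, with a mean of 1.08% ± 0.258 (SD, n = 4). Library 3 was within the Young Sham range and the others were above it.

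The members moved together from library to library, and so did other short genes in part. The median deviation of the members from their own mean over the 16 libraries, on the log2 scale, was 0.43, 0.50, 0.55 and -0.45 in Young Bleo 17 to 20 and 0.23, 0.64, -0.28 and 0.03 in Aged Bleo 1, 2, 3 and 5. It was -0.36, -0.63, -0.26, -0.12 and -0.35 in Young Sham 21 to 25 and 0.75, -0.27 and -0.46 in Aged Sham 13 to 15. For the 129 other protein-coding genes of 600 bases or less the same median was 0.02, 0.21, 0.37 and -0.50 in Young Bleo and 0.82, -0.06 and -0.33 in Aged Sham. Thus Young Bleo 20 was low and Aged Sham 13 was high for these other short genes too, while in Young Bleo 17 they lay close to 0. For the short genes the median was -0.17, -0.45, 0.04, 0.02 and -0.16 in Young Sham and -0.01, 0.37, -0.09 and 0.13 in Aged Bleo. The median of the 77 genes for mitochondrial ribosomal proteins, which serve a separate ribosome, was 0.06, 0.11, 0.32 and -0.33 in Young Bleo 17 to 20 and 0.49, -0.11 and -0.11 in Aged Sham 13 to 15. The part of these library differences in the results was not tested, and the numbers of members called higher or lower in each comparison are also given without single libraries. Ribosomal protein genes are short, with a median listed length of 1444 bases against 2857 for all protein-coding genes.

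**Figure D1:**
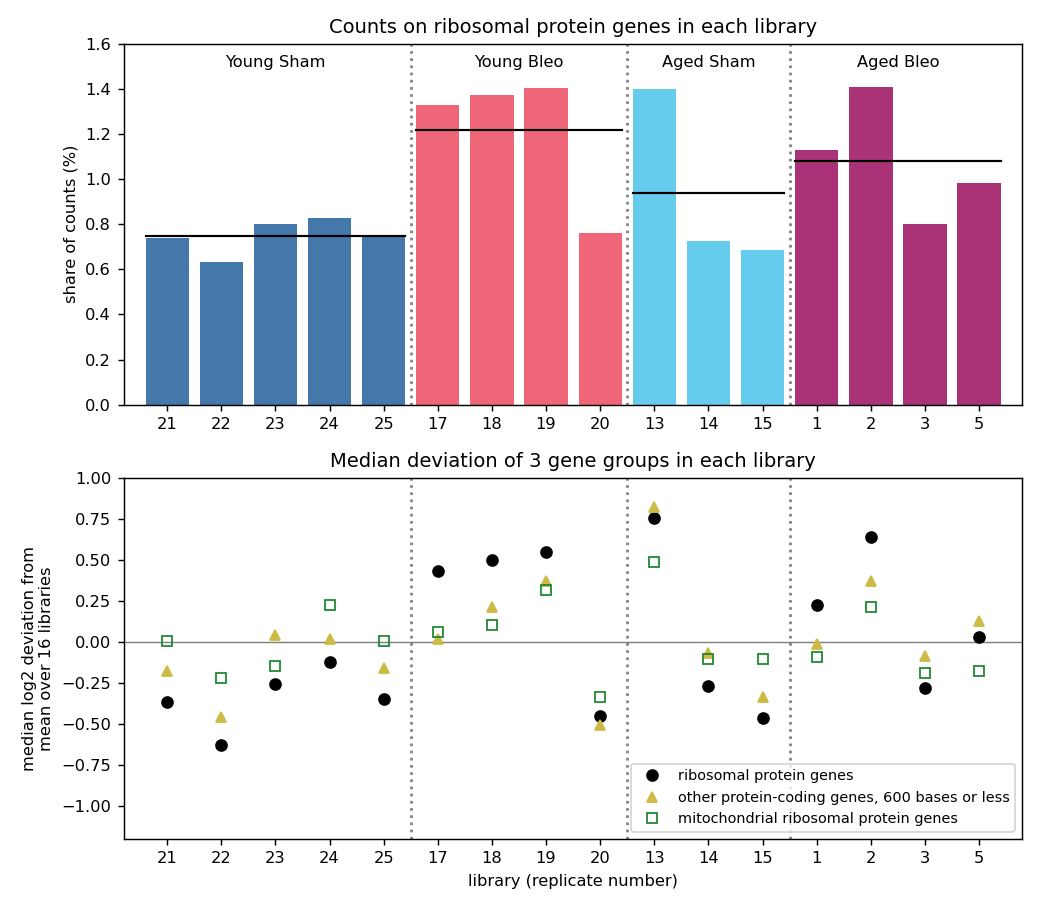
Top, bars give the percent of a library's counts on the 87 ribosomal protein genes, and black lines the group means. Bottom, points give the median log2 deviation of 3 gene groups in each library. Young Bleo 17 to 19, Aged Sham 13 and Aged Bleo 2 are above 1.3% and Young Bleo 20 is at 0.762%.

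The members were also more variable within groups than most genes. The median SD within groups was 0.43 on the log2 scale for the members, with a range from 0.17 to 1.11, against 0.34 for all genes at the same minimum level. Members that share a library's shift are not independent of each other, so a count of members called is not a count of separate results. The part of a shared shift in the calls was not tested.

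Levels per length differed widely among the members, although their proteins are needed in similar numbers. The mean over the 16 libraries of the deposited FPKM, which is scaled to gene length, ran from 1.42 to 192 with a median of 27.6. Among the highest were Rps27 at 192 FPKM, Rpl8 at 132 and Rpl32 at 125. The lowest were Rpl35a at 1.42 FPKM and Rpl29 at 2.11. Rpl35a is listed with a length of 3526 bases and Rps27 with 255, and the length given to a gene enters its FPKM directly. The genes lie on 19 chromosomes, with 14 on chromosome 7 and 4 on the X. Of the 87 genes, 47 overlap another listed gene and 16 a protein-coding one, and the table lists 252 pseudogenes named for them. Those pseudogenes held between 0.0291% and 0.0739% of a library's counts, and how reads that fit both were assigned is not stated.

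In young mice 24 of the 84 members were higher after bleomycin and none was lower. A gene is called here if its DESeq2 p, adjusted over all genes by Benjamini and Hochberg, did not exceed 0.05 and it changed by 0.5 or more on the log2 scale. Of all 18986 genes tested, 7.29% were called higher. The median log2 difference of the members was 0.66, or 1.57-fold, and 81 of the 84 values were above 0, while the median over all genes tested was 0.01. The middle 50% of the members lay between 0.47 and 0.75. Small-subunit genes gave 14 of the calls with a median of 0.69, and large-subunit genes gave 10 with a median of 0.60. At an unadjusted p under 0.05, 58 members were higher and 1 lower, where 26.3% of all genes tested passed in either direction.

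The calls rest on libraries 17, 18 and 19. Without library 17, 18 or 19 the number called higher was 8, 7 or 6, and without library 20 it was 58. Leaving out the 4 libraries in which other short genes deviated most (Young Sham 22, Young Bleo 20, Aged Sham 13 and Aged Bleo 2), chosen after the data were seen, gave 69, and DESeq2 with offsets for gene length gave 40. Young Bleo 19, whose median for those genes was 0.37 like that of Aged Bleo 2, was not among the 4. The edgeR quasi-likelihood test called 16 members higher and limma voom 10. Here and below, the share of all genes called was counted only in the main DESeq2 fit and not in these alternatives. Leaving out Young Sham 22, the lowest control, gave 12, and leaving out any other control gave 18 to 24. The 6 genes Rps6, Rps19, Rps3a1, Rpsa, Rpl3 and Rpl4 were called in every one of the 9 fits that left out 1 library and in all 15 settings run, which included other tools and normalizations. In Rps6, Rps3a1, Rpsa, Rpl3, Rpl4 and Rpl35a every Young Bleo library was above every Young Sham library. These 6 genes were no larger a share of the members than the 7.47% of all genes tested that did the same.

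Rps6, the small-subunit protein that S6 kinases phosphorylate, gave the largest difference. Its gene lies at chr4:86854660-86857412 (mm10). Rps6 had 2941, 2473, 3217, 3307 and 2957 normalized counts in Young Sham 21 to 25 and 7311, 7269, 7567 and 3649.8 in Young Bleo 17 to 20. Even library 20 was above all controls, and the lowest of the other 3 Young Bleo libraries had 7269. The DESeq2 log2 fold change of Rps6 was 1.11 (adjusted p = 0.00102, SE 0.27), or 2.17-fold, and edgeR gave an adjusted p of 0.0133.

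Rpsa, a small-subunit protein also described as a laminin receptor, did not overlap between the groups either. It lies at chr9:120127766-120132369 (mm10). Rpsa had 5688, 5547, 5124, 5359 and 5028 normalized counts in Young Sham and 9210.4, 8369, 9267 and 6207 in Young Bleo. For Rpsa the DESeq2 log2 fold change was 0.63 (adjusted p = 0.000555, SE 0.15), the lowest adjusted p among the members in this comparison. Rps19, the gene most often mutated in Diamond-Blackfan anaemia, lies at chr7:24884371-24889806 (mm10). It had 5799, 4505, 5983, 6864 and 6564 normalized counts in Young Sham and 13388, 12242, 12574 and 6504 in Young Bleo, with library 20 among the controls. Its DESeq2 log2 fold change was 0.91 (adjusted p = 0.00635, SE 0.26). Rps3a1, another small-subunit gene at chr3:86137940-86142702 (mm10), had 5732, 4869.7, 5393, 5979.9 and 5642 normalized counts in Young Sham and 10788, 11056, 11331 and 6025 in Young Bleo. For Rps3a1 DESeq2 gave a log2 fold change of 0.83 (adjusted p = 0.00254, SE 0.22), with no overlap of the groups.

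Among the large-subunit genes, Rpl3, whose protein lies next to the peptidyl transferase centre, is at chr15:80077794-80091868 (mm10). Rpl3 had 4302, 3678, 4289, 5176 and 4283 normalized counts in Young Sham and 8938, 9353, 8256 and 5349.9 in Young Bleo. The groups did not overlap, and the DESeq2 log2 fold change was 0.88 (adjusted p = 0.00137, SE 0.22). Rpl4, which lines the tunnel through which the new chain leaves, is at chr9:64173387-64178562 (mm10). Rpl4 had 13491, 12522, 13436, 14779 and 15289 normalized counts in Young Sham and 22724, 23237, 23775 and 16011 in Young Bleo. Its DESeq2 log2 fold change was 0.62 (adjusted p = 0.00183, SE 0.16), the smallest of the 24 called.

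In other members with large differences library 20 was among the controls or just above them. Rpl12, at the base of the stalk that recruits translation factors, is at chr2:32961559-32965345 (mm10). Rpl12 had 1038, 802, 1204, 1484 and 1177 normalized counts in Young Sham and 2734, 2713, 2762 and 1228 in Young Bleo. Libraries 17 to 19 were close together and library 20 was among the controls, and the DESeq2 log2 fold change was 1.05 (adjusted p = 0.0150, SE 0.33). Rps12, in the beak of the small subunit, is at chr10:23785211-23787195 (mm10) and has 21 pseudogenes listed under its name. Rps12 had 825, 619.5, 798, 839.9 and 820.3 normalized counts in Young Sham and 1599, 1674, 1894 and 832 in Young Bleo. The DESeq2 log2 fold change was 0.94 (adjusted p = 0.0339, SE 0.33), which missed the threshold in edgeR (adjusted p = 0.0688). The call of Rps12 was lost when any 1 library other than Young Bleo 20 was left out. Rpl35a, a large-subunit protein also mutated in Diamond-Blackfan anaemia, is at chr16:33056453-33060189 (mm10). Rpl35a had 357, 311, 244, 347 and 342 normalized counts in Young Sham and 645, 709, 864 and 377 in Young Bleo, and DESeq2 gave 1.02 (adjusted p = 0.0127, SE 0.31). The lowest Young Bleo value stood just above the highest control. The remaining genes called higher included Rps2, Rps3, Rps4x, Rps7, Rps15a, Rps16, Rps18, Rps20, Rps24, Rpl7, Rpl13, Rpl13a, Rpl30 and Rpl32, with log2 fold changes from 0.67 (Rps4x) to 0.91 (Rps20). Of these, Rps16 and Rps15a lost the call in the same 8 fits as Rps12, and only Rpl7 kept it in more than 6 of the 9 fits that left out 1 library.

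**Figure D2:**
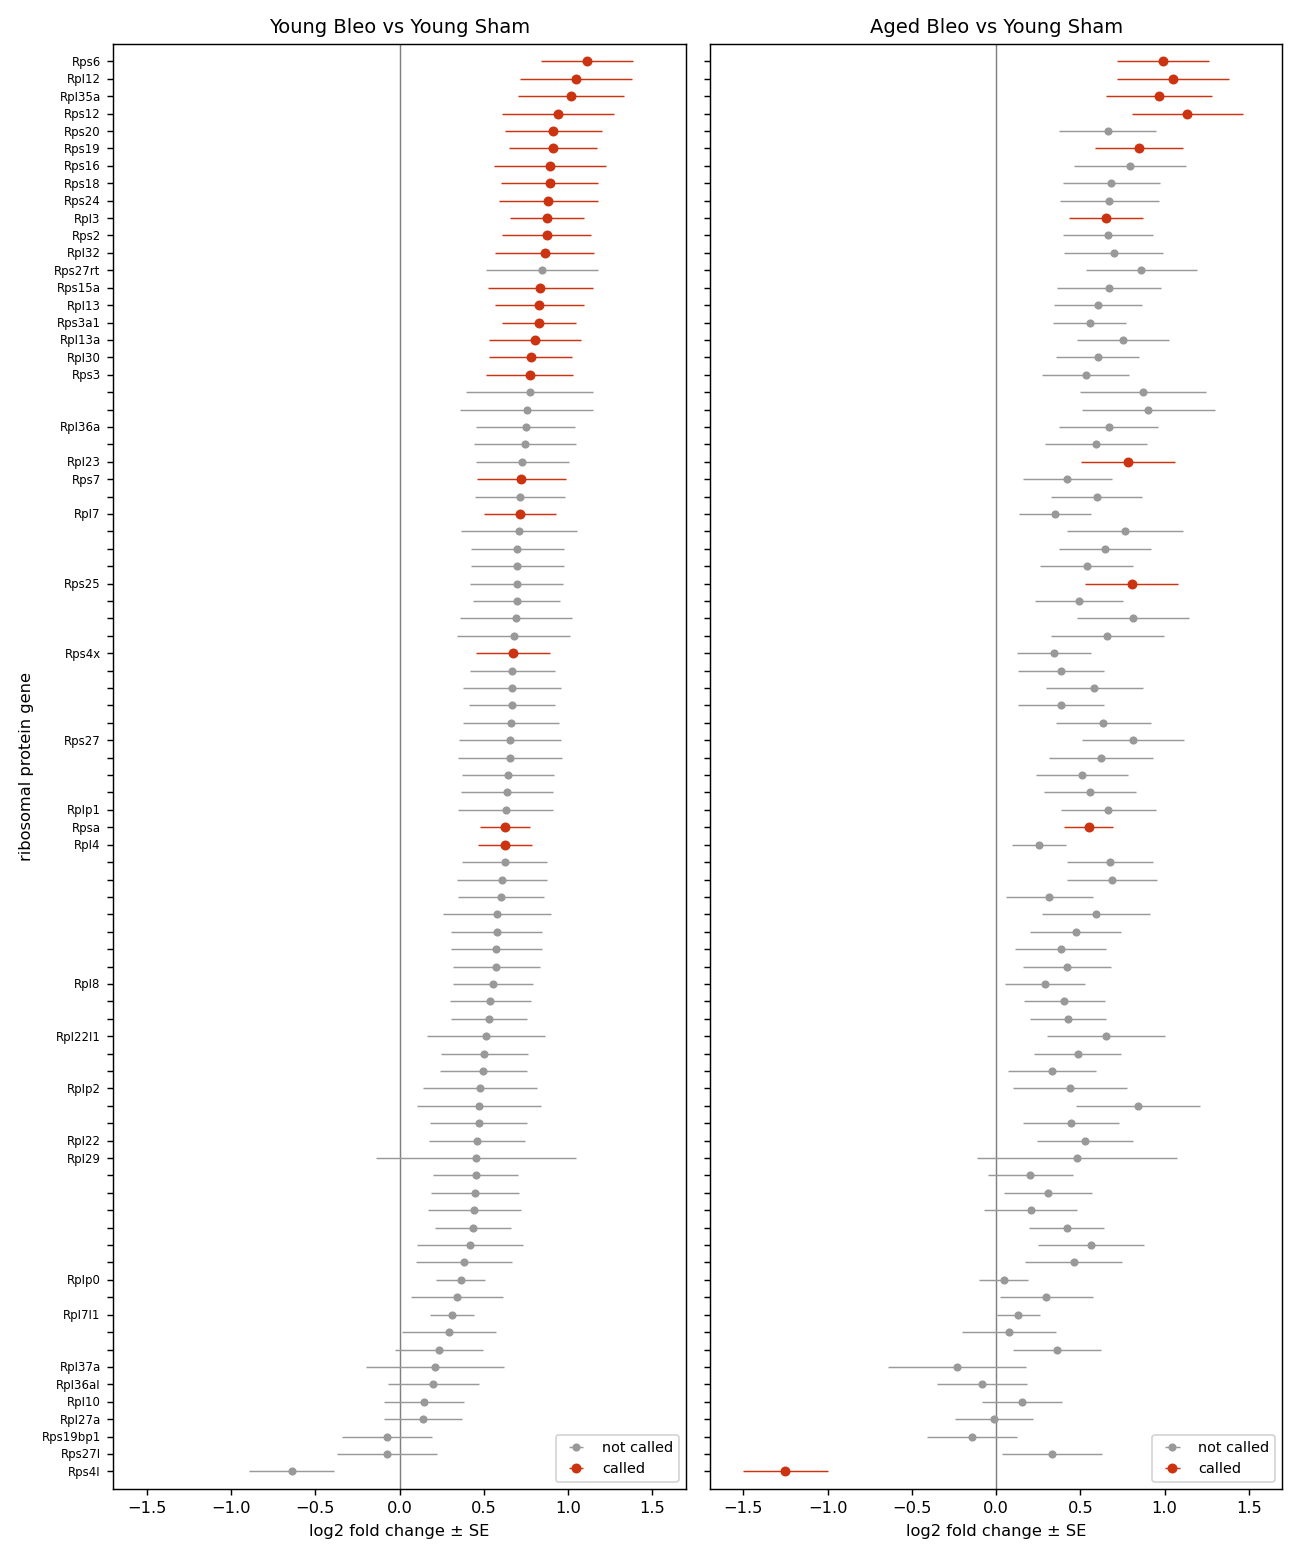
Points give the DESeq2 log2 fold change of 82 of the ribosomal protein genes and bars its SE, in Young Bleo (left) and Aged Bleo (right) against Young Sham, in the order of the left panel; red marks called genes, and those described in the text are labelled. Most points lie between 0.3 and 0.9 in both panels, and Rps4l is at the lower end of both.

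The P-stalk proteins, which recruit elongation factors, did not pass. Rplp0 had 15456, 14823, 16073, 18101 and 15735 normalized counts in Young Sham and 22901, 21506, 22762 and 15316 in Young Bleo, with a DESeq2 log2 fold change of 0.36 (adjusted p = 0.0719, SE 0.15). For Rplp1 DESeq2 gave 0.63 (adjusted p = 0.119, SE 0.28) and for Rplp2 0.48 (adjusted p = 0.394, SE 0.34). Apart from the paralogs Rps4l and Rps27l, described later, the lowest values among genes for ribosomal proteins proper were those of Rpl27a at 0.14 and Rpl10 at 0.14. Rps19bp1, which the name rule takes although its protein binds Rps19 and is no ribosomal protein, stood at -0.07 ± 0.27 (SE) in young mice and -0.14 ± 0.27 (SE) in Aged Bleo. Without Young Bleo 20 its value in young mice was 0.09.

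Sequences about the start sites of the members are shown because the class is defined by how its mRNAs begin. RefSeq promoter entries (GRCm38.p6) matched 66 of the 87 members, and 15855 protein-coding genes in all. Each line gives 30 bases on the gene's strand, with the annotated start as base 16, and capitals mark the longest run of C and T that comes within 5 bases of the start. The first 6 are called members, and the last pair are the paralogs Rps27 and Rps27l described later.
Rps6, chr4:86857353-86857382, minus strand: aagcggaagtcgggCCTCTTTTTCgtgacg
Rpl12, chr2:32961697-32961726, plus strand: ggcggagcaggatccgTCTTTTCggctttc
Rpl4, chr9:64173372-64173401, plus strand: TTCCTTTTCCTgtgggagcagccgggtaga
Rps19, chr7:24884577-24884606, plus strand: tccgaaaTCTCgcgagactcgacgcccgac
Rpsa, chr9:120127751-120127780, plus strand: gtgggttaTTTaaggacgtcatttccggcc
Rps12, chr10:23787195-23787224, minus strand: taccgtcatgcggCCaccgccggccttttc
Rps27, chr3:90213634-90213663, minus strand: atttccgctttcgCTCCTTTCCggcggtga
Rps27l, chr9:66946071-66946100, plus strand: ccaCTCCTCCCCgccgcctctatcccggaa

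Runs of C and T at the start were more common in the members than in all promoters, but not in every member. A run of at least 8 was found in 21 of the 66 members (31.8%) against 9.49% of all 15855 promoters, and a run of at least 5 in 35 (53.0%) against 32.8%. Rps6 has a run of 10 bases that takes in the annotated start. Rpl4 has one of 14, of which the printed window holds the last 11, and it ends before the annotated start. The runs of Rpsa and Rps12 are of 3 and 2 bases, so called members are found with and without a long run near the start. The letters CTTTC on the gene's strand stood in the 30 bases about the start in 17 of the 66 members (25.8%) and in 555 of all 15855 promoters (3.5005%). The ETS family core CCGGAAG, read on both strands over 300 bases (250 before the start and 50 from it on), was found in 25 members (37.9%) against 12.1% of all promoters. The Myc-type E-box CACGTG was found in 7.58% against 8.13%, and TATAAA in 9.09% against 12.8%. The CCGGAAG match, or its reverse complement, is capitalised in the upstream stretches of 3 called members.
Rps6, chr4:86857440-86857469, minus strand: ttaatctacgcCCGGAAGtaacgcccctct
Rpsa, chr9:120127567-120127596, plus strand: cgccccagctaCTTCCGGcctggggtctgt
Rps18, chr17:33955804-33955833, minus strand: agaaggccgaaCCGGAAGttatagctccgg

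Values of members with and without these letters are given side by side, with no test of their difference. In Young Bleo against Young Sham the median log2 difference was 0.65 for the 21 members with a run of at least 8 and 0.65 for the 42 without, and 6 and 12 of them were called. With CCGGAAG the median was 0.66 over 24 members, and without it 0.64 over 39, with 6 and 12 called. In Aged Bleo against Young Sham the median was 0.49 with a run of at least 8 and 0.54 without, with 1 of 21 and 7 of 42 called, and 0.55 with CCGGAAG and 0.53 without, with 3 of 24 and 5 of 39 called. Rpl39l also holds CCGGAAG but is not among the 84 genes with values. These are matches of letters at annotated starts, and no binding or start site use was measured here.

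In aged mice after bleomycin, against Young Sham, 9 of the 84 members were higher and 1 was lower. Of all 18515 genes tested, 6.58% were called higher and 3.14% lower. The median log2 difference of the members was 0.55, or 1.47-fold, and 79 of the 84 values were above 0. The genes called higher were Rps6, Rps12, Rps19, Rps25, Rpsa, Rpl3, Rpl12, Rpl23 and Rpl35a. The comparison uses the same 5 Young Sham libraries as the one in young mice and differs from them in age as well as injury. In 15 members every Aged Bleo library was above every Young Sham library, which 5.82% of all genes tested also showed.

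These calls rest on fewer libraries than those in young mice. Without Aged Bleo 2 none of the 9 was called, without Aged Bleo 1 only Rpsa was, and without Aged Bleo 3 the number was 21. Without Young Sham 21, 22 or 23 it was 5, 3 or 5. Without the 4 libraries in which other short genes deviated most it was 12, and with offsets for gene length 16. The edgeR quasi-likelihood test called 3 members higher and limma voom 1. None of the 9 was called in all settings run; Rps6 and Rps12 each lost the call in limma voom and without Aged Bleo 1 or 2.

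Rps6 had 7045, 8806, 3549.8 and 4256 normalized counts in Aged Bleo 1, 2, 3 and 5 and 4824, 3965 and 2777 in Aged Sham 13 to 15. All Aged Bleo values were above the Young Sham values, the highest of which was 3307, but libraries 3 and 5 were within the Aged Sham range. The DESeq2 log2 fold change against Young Sham was 0.99 (adjusted p = 0.00580, SE 0.27). Rpsa had 8618, 9257, 6654 and 6771 normalized counts in Aged Bleo and 8063, 6386 and 6359 in Aged Sham. The Aged Sham values of Rpsa were above its Young Sham values too, a separation that was not counted over all genes. The DESeq2 log2 fold change of Rpsa in Aged Bleo against Young Sham was 0.55 (adjusted p = 0.00425, SE 0.15), and in Aged Sham it was 0.37 (adjusted p = 0.217, SE 0.16).

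Rps12 had the largest rise in this comparison, with 1894, 2533, 967 and 1466 normalized counts in Aged Bleo and 2294, 954 and 760.3 in Aged Sham. Aged Sham 13 was as high as the higher Aged Bleo libraries, while Aged Sham 14 and 15 were near the Young Sham values. DESeq2 gave 1.14 (adjusted p = 0.00993, SE 0.33) against Young Sham. Rpl12 had 2605, 3578, 1485 and 1775 normalized counts in Aged Bleo and 2354, 1125 and 867 in Aged Sham, and DESeq2 gave 1.05 (adjusted p = 0.0199, SE 0.33) against Young Sham. For the others called, the DESeq2 log2 fold changes were 0.97 for Rpl35a, 0.85 for Rps19, 0.80 for Rps25, 0.78 for Rpl23 and 0.65 for Rpl3. Rps25 and Rpl23 were not called in young mice, where their values were 0.70 and 0.73.

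**Figure D3:**
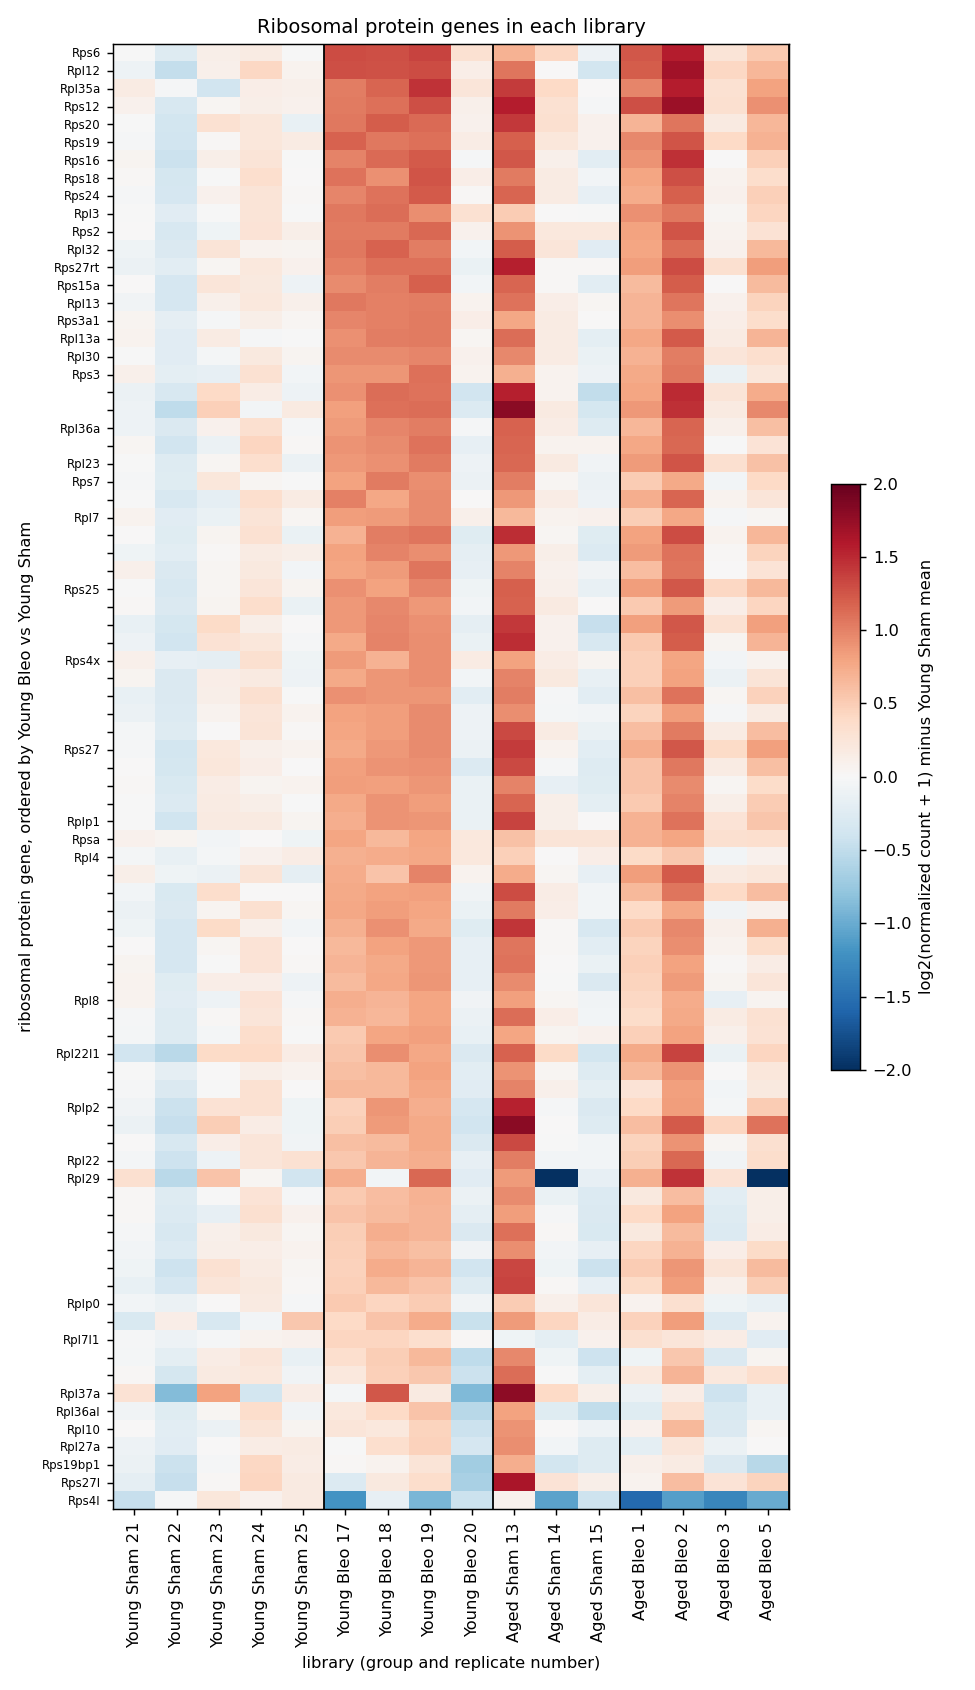
Colours give log2(normalized count + 1) of 82 of the ribosomal protein genes in each library minus its Young Sham mean, with those described in the text labelled. Young Bleo 17 to 19, Aged Sham 13 and Aged Bleo 1 and 2 are red for most genes, Young Bleo 20 is not, and Rps4l and Rps27l differ from the rest.

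Rps4l, a copy of the X-linked small-subunit gene Rps4x, went the other way. It lies at chr6:148354656-148355598 (mm10). Rps4l had 1325, 1795, 2151, 1943 and 2063 normalized counts in Young Sham and 623, 849, 736 and 908 in Aged Bleo, with no overlap. It had 797, 1637, 965 and 1358 in Young Bleo and 1940.3, 875 and 1374 in Aged Sham, both of which overlapped the controls. DESeq2 gave a log2 fold change of -1.25 (adjusted p = 4.72e-05, SE 0.25), or 0.420 of the Young Sham level, in Aged Bleo, and edgeR an adjusted p of 0.00812. This call was made in every setting and in every fit that left out 1 library. In Young Bleo the value was -0.64 (adjusted p = 0.0657, SE 0.25), which passed only with offsets for gene length or in a fit on these 2 groups alone or without Young Bleo 18 or Young Sham 21, and against Aged Sham the Aged Bleo value was -0.84 (adjusted p = 0.0544, SE 0.29). The difference between Aged Bleo and Young Bleo, -0.61 (adjusted p = 0.349, SE 0.27), did not pass either.

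Rps4l lies within Tmtc1, on the opposite strand, and whether reads were counted by strand is not stated. Tmtc1 had 3723, 3992, 3972, 4680.3 and 4302 normalized counts in Young Sham and 1931, 1819.6, 1608 and 3856 in Young Bleo. Tmtc1 had 4264, 5752 and 5682 in Aged Sham and 2033, 2785, 3912 and 4044 in Aged Bleo. Tmtc1 was lowest in Young Bleo 17 to 19 and Aged Bleo 1, while Rps4l had at most 965 in all 4 Aged Bleo libraries, in Young Bleo 17 and 19 and in Aged Sham 14. How far reads of one gene entered the count of the other was not tested. Rps4x itself had 6435, 5347, 5302, 7482 and 5658 normalized counts in Young Sham and 10811, 9660.5, 11406 and 6728 in Young Bleo, and was called higher there with a DESeq2 log2 fold change of 0.67 (adjusted p = 0.0195, SE 0.22). In Aged Bleo Rps4x had 8315, 10361, 5748 and 6293, and DESeq2 gave 0.35 (adjusted p = 0.366, SE 0.22).

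**Figure D4:**
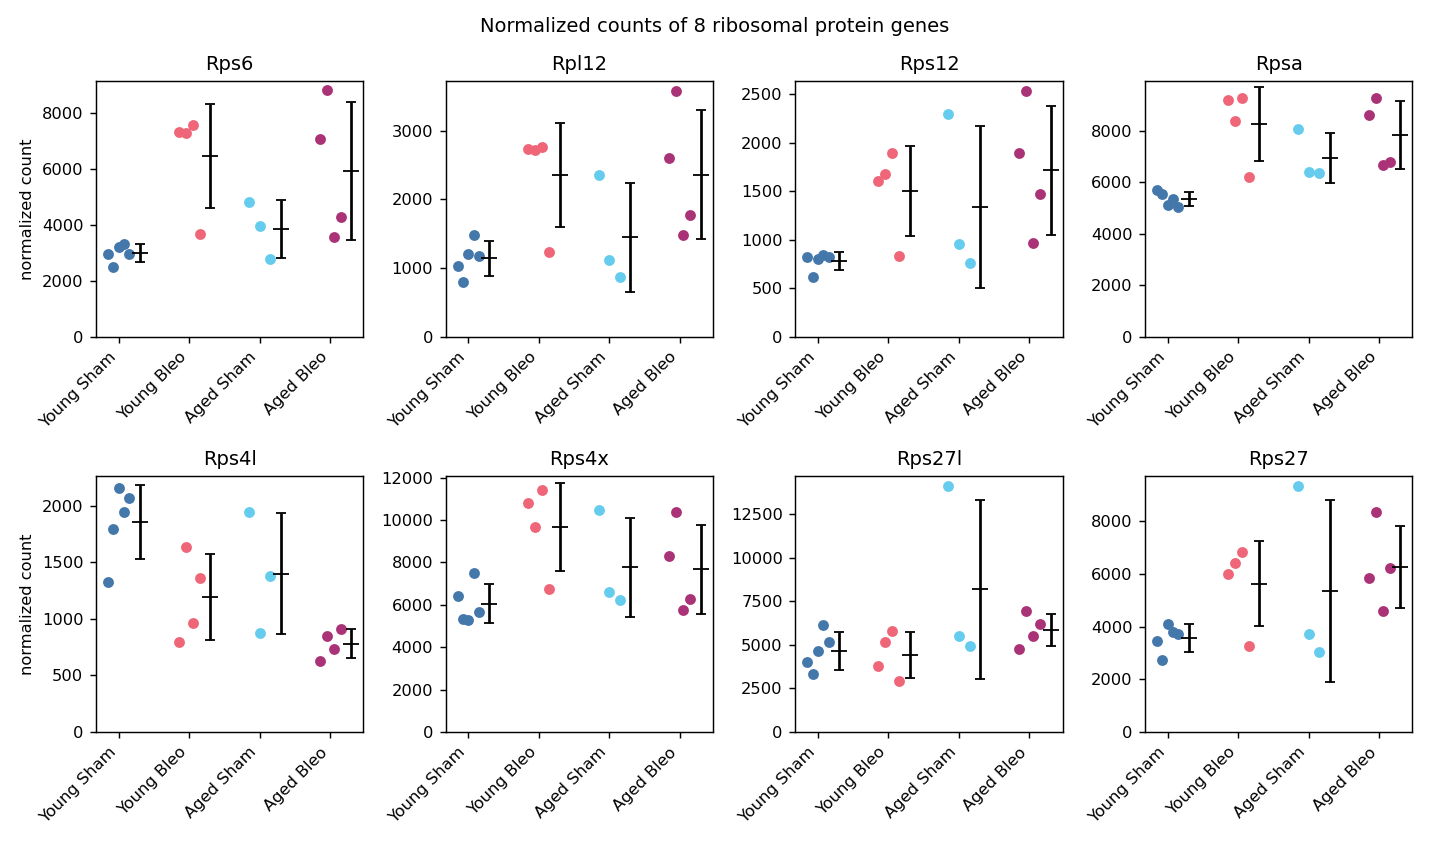
Points are the normalized counts of 8 ribosomal protein genes in each library by group, and the black bars the group mean ± SD (n = 5, 4, 3 and 4). The Young Bleo point near the controls in Rps6, Rpl12 and Rps12 is library 20, and the high Aged Sham point in Rpl12, Rps12, Rps27l and Rps27 is library 13.

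Age alone gave no call among the members. In Aged Sham against Young Sham DESeq2 called none of the 84, where 3.36% of all 18515 genes tested were called in either direction, and edgeR and limma voom also called none. At an unadjusted p under 0.05 there were 10 of the 84 members, all higher, with DESeq2, and 14.5% of all genes tested passed it, so the members' count was no larger a share than that of all genes. The median log2 difference was 0.43, against 0.02 over all genes tested, and 81 of 84 values were above 0. Without Aged Sham 13 the median was -0.04, so the direction of the median rests on that library. The largest value was that of Rpl37a at 0.85, for which Aged Sham 13, 14 and 15 had 7821, 2985 and 2464 normalized counts and Young Sham 2778, 1237, 3976, 1749 and 2499. Without Aged Sham 13 the value of Rpl37a was 0.16, and without Aged Sham 15 it was 1.14.

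Injury in aged mice, against Aged Sham, also gave no call. DESeq2 called none of the 84 members against 5.85% of all genes in either direction, with 1 higher and 2 lower at an unadjusted p under 0.05 (19.0% of all genes), and edgeR and limma voom called none. The median log2 difference was 0.10. Without Aged Sham 13 the median was 0.57 and 3 members were called higher, and without the 4 libraries in which other short genes deviated most 12 were. Against Young Bleo, Aged Bleo had no member called, where 0.990% of all genes were called, and 3 were lower at an unadjusted p under 0.05 (10.5% of all genes in either direction). The median was -0.10, and edgeR and limma voom called none. Without the 4 libraries 32 members were lower in Aged Bleo than in Young Bleo, and without Young Bleo 19 as well 8 were, so this comparison turns on which libraries are kept. The 0.990% of all genes is from the fit of all libraries, and the share was not counted with libraries left out.

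The difference of the responses to injury, Aged Bleo minus Aged Sham less Young Bleo minus Young Sham, was below 0 in 83 of the 84 members, with a median of -0.55. None passed in DESeq2, where 0.387% of all genes did, while edgeR and limma voom called none. At an unadjusted p under 0.05 there were 7 of the 84 members, all lower, a share near the 7.95% of all genes. Without Aged Sham 13 the median was -0.04, and without the 4 libraries 1 member was called lower. A smaller response of the ribosomal protein genes in aged ECs was therefore not shown by these libraries, and neither was an equal one.

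Several members have a close paralog among the members, and the ratios of some of these pairs differed between groups by more than their spread. The ratio of paralog to partner within a library is not moved by size factors, and is given as log2 of the normalized counts without a test. Rps27l, a target of p53, stood against Rps27 at 0.36 ± 0.22 (SD, n = 5) in Young Sham and -0.35 ± 0.23 (SD, n = 4) in Young Bleo. It stood at 0.61 ± 0.07 (SD, n = 3) in Aged Sham and -0.08 ± 0.26 (SD, n = 4) in Aged Bleo. All 8 Sham libraries were above all 4 Young Bleo libraries, and Aged Bleo 3 reached into the Young Sham range. In FPKM, which is per length, Rps27l was 40.6% of Rps27 in Young Sham and 24.9% in Young Bleo. Rps27l itself had 3993, 3314, 4634, 6148 and 5138 normalized counts in Young Sham and 3759, 5185, 5782 and 2905 in Young Bleo, unlike most members. The log2 fold change of Rps27l in Young Bleo was -0.08 ± 0.30 (SE), and that of Rps27 was 0.66 ± 0.30 (SE). Without Young Bleo 20 the value of Rps27l was 0.08, so its sign rests on that library. The mRNA of Rps27, as printed above, starts in a run of 9 C and T, while the run of 9 printed for Rps27l ends before its annotated start and so is not part of the annotated mRNA.

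Rpl36al stood against the X-linked Rpl36a at 1.38 ± 0.05 (SD, n = 5) in Young Sham and 0.83 ± 0.08 (SD, n = 4) in Young Bleo. It stood at 1.05 ± 0.08 (SD, n = 3) in Aged Sham and 0.66 ± 0.23 (SD, n = 4) in Aged Bleo. Every Young Sham library was above every other library for this ratio, and the spread within Young Sham was small. In FPKM, the Rpl36al level as a percent of the Rpl36a level was 319% (Young Sham), 218% (Young Bleo), 253% (Aged Sham) and 195% (Aged Bleo). Neither gene was called in any comparison. Rpl36a had 1353, 1192, 1548, 1825 and 1425 normalized counts in Young Sham and 2618, 2865, 2961 and 1423 in Young Bleo. For Rpl36al these were 3627, 3211, 3890, 4821 and 3603, and 4386, 4989, 5632 and 2594. The order of groups in the ratio was singled out after the values were seen.

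Rps4l stood against Rps4x at -1.71 ± 0.40 (SD, n = 5) without injury and -3.05 ± 0.72 (SD, n = 4) after bleomycin in young mice. In aged mice it stood at -2.51 ± 0.38 (SD, n = 3) without injury and -3.27 ± 0.47 (SD, n = 4) after bleomycin. Of this pair, Rps4x was called higher in Young Bleo and Rps4l lower in Aged Bleo. The other pairs moved less. Rpl22l1 against Rpl22 had group means from -1.32 to -1.204, Rps27rt against Rps27 from -3.24 to -3.08, and Rpl7l1 against Rpl7 from -1.47 to -1.09. Rpl10l and Rpl39l, known from the testis, and Rpl3l, known from muscle, were at or near 0 in every library.

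**Figure D5:**
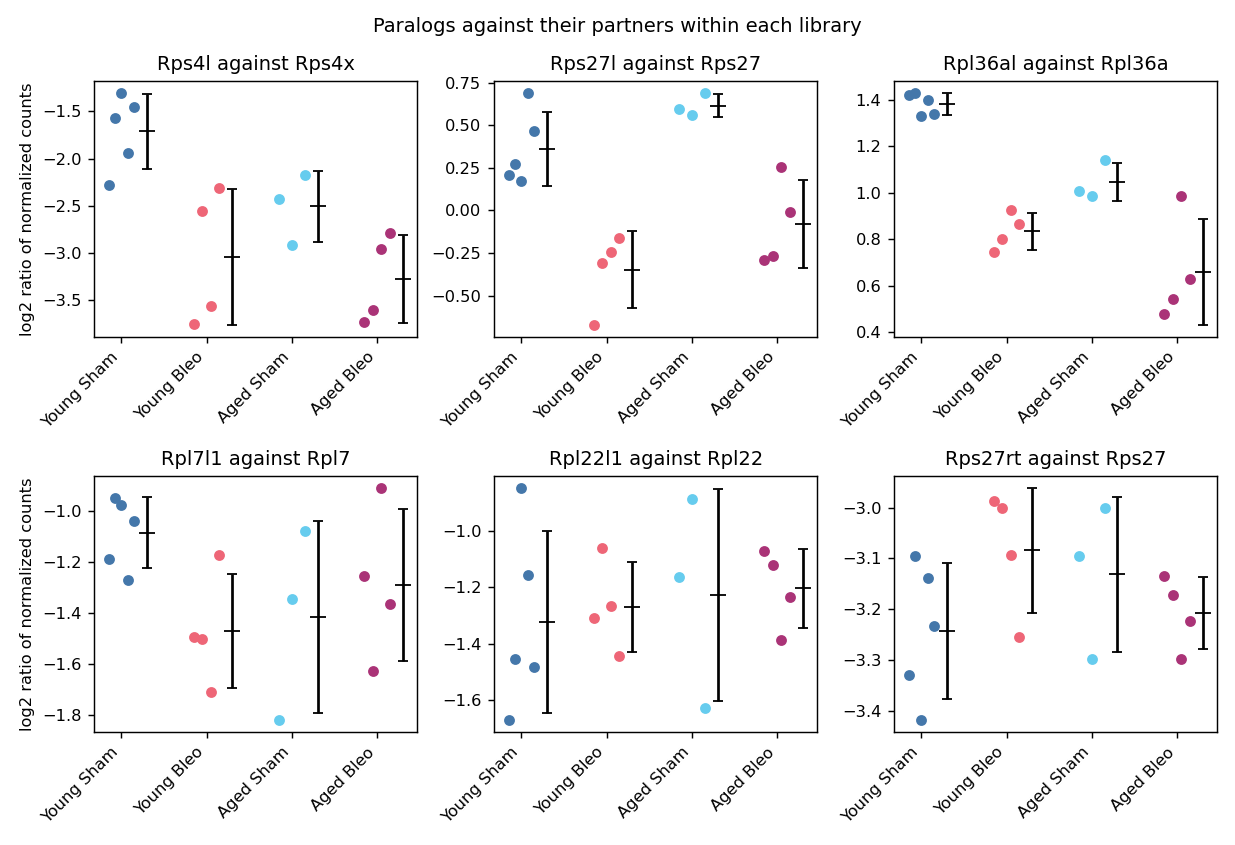
Points give the log2 ratio of normalized counts of a paralog to its partner in each library by group, and black bars the mean ± SD (n = 5, 4, 3 and 4). For Rpl36al the Young Sham points lie apart from all others, and for Rps27l the Young Bleo points lie below all Sham points.

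Other genes of protein synthesis were read from lists drawn up by known role. Of 26 further translation factors with terminal oligopyrimidine mRNAs, 8 were called higher in Young Bleo against Young Sham and none lower, with a median log2 difference of 0.43. Of all genes tested, 7.29% were called higher there. Pabpc1, the poly(A)-binding protein, had a DESeq2 log2 fold change of 0.94 (adjusted p = 1.81e-05, SE 0.18) and Eif3a, an initiation factor subunit, of 0.66 (adjusted p = 1.68e-07, SE 0.11). The RNA-binding protein Hnrnpa1 stood at 0.73 (adjusted p = 0.000656, SE 0.17) in DESeq2 and the ribosomal scaffold Gnb2l1 at 0.62 (adjusted p = 0.0460, SE 0.23). In Aged Bleo against Young Sham 2 were called higher, Pabpc1 at 0.86 (adjusted p = 0.000153, SE 0.18) and Hnrnpa1 at 0.58 (adjusted p = 0.0131, SE 0.17) in DESeq2. These 2 of 26 are near the share of all genes called higher there, 6.58%. Fau, whose product is also a ribosomal protein but whose name the rule does not take, stood at 0.44 (adjusted p = 0.300, SE 0.27) in Young Bleo against Young Sham and was not called. In Aged Sham Nap1l1 was the 1 gene of this list called higher, a share near the 3.36% of all genes called in either direction. In the other comparisons none was called.

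Genes for ribosome assembly had smaller values. Of 49 tested, Fbl, the methyltransferase of ribosomal RNA, and Dkc1, the pseudouridine synthase, were called higher in Young Bleo with DESeq2 log2 fold changes of 0.72 (adjusted p = 0.00322, SE 0.19) and 0.50 (adjusted p = 0.0287, SE 0.17), and the median was 0.24. That is a smaller share than the 7.29% of all genes called higher. None was called in Aged Bleo against Young Sham. Of the 77 genes for mitochondrial ribosomal proteins, a list added after the data were seen, 2 were called higher in Young Bleo, also a smaller share than over all genes, with a median of 0.06, and none in Aged Bleo. The rise in Young Bleo was thus larger in the cytosolic list, by its count and median, and whether the lists differ was not tested.

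Among 29 regulators of ribosomal protein synthesis, 5 were higher and 2 lower in Young Bleo, where 7.29% of all genes tested were called higher and 6.16% lower. In Aged Bleo against Young Sham 5 were higher and 1 lower, where the shares of all genes were 6.58% and 3.14%, so the counts lower were close to those of all genes. Mycn, a Myc family factor, had 731 ± 209 normalized counts (SD, n = 5) in Young Sham and 3435 ± 1008 (SD, n = 4) in Young Bleo. The DESeq2 log2 fold change of Mycn was 2.23 (adjusted p = 4.46e-06, SE 0.41) in Young Bleo and 1.57 (adjusted p = 0.00311, SE 0.41) in Aged Bleo. Ddit4, an inhibitor of mTORC1, was higher by 1.88 (adjusted p = 0.000320, SE 0.43) in Young Bleo and 1.88 (adjusted p = 0.000431, SE 0.43) in Aged Bleo. Thus an activator of ribosome genes and an inhibitor of the pathway that translates them were both higher. Mycl went from 1.32 ± 2.96 normalized counts (SD, n = 5) to 58.6 ± 24.5 (SD, n = 4), both low levels. The kinase gene Rps6ka1 was lower in Young Bleo, at -1.25 (adjusted p = 0.0137, SE 0.39). Myc was called higher in Aged Bleo, at 1.22 (adjusted p = 0.0260, SE 0.40), and Eif4ebp2, which restrains initiation, was lower there, at -0.56 (adjusted p = 0.0449, SE 0.20). Larp1, which binds the mRNAs of this class, was at 0.05 (adjusted p = 0.888, SE 0.14) in Young Bleo. Against Aged Sham, Aged Bleo had Mycn and Myc called higher, at 2.38 (adjusted p = 0.000125, SE 0.47) and 1.51 (adjusted p = 0.0236, SE 0.46), and Max, the partner of Myc, lower, at -0.93 (adjusted p = 0.00260, SE 0.23).

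Markers of other cells differed after injury from Young Sham in both directions, with macrophage, cycling and mesothelial markers called higher and mural and fibroblast markers called lower. The summed normalized counts of the 11 macrophage markers in the table ran from 3245 to 5335 in uninjured young mice and from 17863 to 55106 after bleomycin. In aged mice they ran from 7524 to 23157 without injury and from 25906 to 177635 after it. None of the 11 was at 0 throughout, and 6 were called higher in Young Bleo and 9 in Aged Bleo, against Young Sham. Young Bleo 20 had the lowest macrophage sum of its group, and Aged Bleo 1 and 2 the highest, libraries that were also low and high for ribosomal protein genes. Other libraries did not follow that order, since Aged Sham 14 had the highest macrophage sum of its group, 23157, with a low share of ribosomal protein genes, and Aged Bleo 5 had the lowest of its group, below the 43191 of Aged Bleo 3. The 8 cycling markers, such as Mki67, summed to 791 to 1124 in uninjured young mice and 1882 to 6587 after bleomycin, and to 729 to 1018 in uninjured aged mice and 1229 to 5229 after it. All 8 were called higher in Young Bleo and 7 in Aged Bleo, and Young Bleo 20 and Aged Bleo 3 were the lowest of their groups. Aged Sham 13, the highest Sham library for ribosomal protein genes, had the lowest cycling sum of all, 729, and a macrophage sum of 7921. The mesothelial sum was 120.3 to 521 in Young Sham and 1387 to 3893 in Young Bleo, with 4 of its 5 markers called higher, and Aged Sham was already at 1129 to 3532 without injury. Mural markers, those of pericytes and smooth muscle, summed to 10108 to 22717 in Young Sham against 3662 to 9479.6 in Young Bleo and 2534 to 4665 in Aged Bleo, and 4 and 8 of the 8 were called lower. The 7 fibroblast markers had 1 called lower in Young Bleo and 5 in Aged Bleo, where the sum was 4161 to 7324 against 9377 to 19401 in Young Sham. The platelet sum was 32854 to 57499 in Young Sham. It was lower in Young Bleo, at 13086 to 31792, with none of the 6 markers called, and higher in Aged Sham, at 81109 to 433078, with 4 called. In Aged Bleo it was 8582 to 60596, with none called against Young Sham and 4 called lower against Aged Sham. Lymphocyte markers summed to 1637 in Aged Sham 13 and 3322 in Aged Bleo 5, and to at most 542 in the other libraries. Erythroid markers summed to 2536 to 13537 in Young Sham, and were highest in Young Bleo 17 at 52465, Aged Sham 13 at 46857, Aged Sham 14 at 46354 and Aged Bleo 2 at 37577. Of these 4 libraries all but Aged Sham 14 were high for ribosomal protein genes, and of the 5 erythroid markers tested 1 was called higher in Young Bleo, none in Aged Bleo and 2 in Aged Sham. The endothelial sum was highest in Young Bleo 20 and Aged Bleo 3 within their groups, the libraries lowest for ribosomal protein genes, and lowest in Aged Sham 13 within its group, and of the 12 endothelial markers 2 were called higher and 2 lower in Young Bleo and likewise in Aged Bleo. The epithelial sum was 7605 to 40344 in Young Sham and 14969.5 to 40462 in Young Bleo, with 1 of 10 markers called lower, and 13139 to 39274 in Aged Bleo, with 1 higher and 1 lower. Neutrophil markers summed to at most 569.7 in any library, with 1 of 5 tested called higher in Young Bleo and in Aged Bleo. The part of other cells and of cycling cells in the ribosomal protein results was not tested, and in sorted bulk RNA more cells of a type and more RNA per cell cannot be told apart.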

How the data were processed

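The count table gave raw read counts and FPKM for 43346 genes in 16 libraries of sorted lung ECs. The authors aligned reads to mm10 with STAR 2.5.2b and made the deposited counts with Subread featureCounts in their MAPRSeq pipeline, per the labels and methods; annotation release, strand setting and treatment of multiply mapped reads are not given in the sources used here. The deposited FPKM values were the authors' own, and the counts summed to 40.2 to 44.7% of the library size that they imply. The labels name a SMART-Seq v4 and Nextera preparation and the methods a TruSeq poly(A) kit. The total was 20907113 to 71035301 counts per library, and no 2 replicates agreed within sampling noise (lowest chi-square per degree of freedom 32.8).

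Counts as deposited were tested with the Wald test of DESeq2 1.42.0 (R 4.3.3), the tool of the study, with 1 mean per group over all 16 libraries, median-ratio size factors and Benjamini-Hochberg adjustment over all genes. Genes were called at an adjusted p of at most 0.05 and a log2 fold change of at least 0.5. Since replicates of a group were separate mice, p-values measure the spread between mice. Alternatives were edgeR 4.0.16 quasi-likelihood and limma 3.58.1 fits, other size factors, offsets for gene length, level and GC content, a filter of 10 counts in 3 libraries, counts of pseudogenes added to their parents, fits on the groups of a contrast only, and libraries left out. The share of counts is a percent of all counts. Named members were those called (where over 10, the 5 highest and 5 lowest), the 3 highest and 3 lowest of each contrast, the 5 highest and lowest by FPKM, the paralog pairs and the P-stalk genes; other genes were named after their values were seen, and a few genes are not reported here. The scripts were tested on simulated counts. The members and gene lists were chosen with earlier results of these data known. Promoter sequences are from RefSeq (GRCm38.p6); 21 members had no entry.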

Additional observations from a re-analysis of the deposited data

Results flagged for a closer look

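Among 69 sets of 4 or 5 replicate values looked at, 7 had a value far from the others by Dixon's criterion, which chance gives about 1 time in 20. In Young Bleo, library 20 stood below the other 3 in 6 of them. Its share of counts on ribosomal protein genes was 0.762%, against 1.33% in the next library. Its normalized counts were 3650 for Rps6 (next 7269), 1228 for Rpl12 (next 2713), 16011 for Rpl4 (next 22724), 10789.5 for Rpl7 (next 17978) and 6504 for Rps19 (next 12242). Young Sham 22 had 619.5 normalized counts of Rps12, where the next library had 798. These values come from the same libraries that were low for other short genes.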

How the results depend on the processing

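Leaving out 1 library at a time gave 6 (without Young Bleo 19) to 58 (without Young Bleo 20) members called higher in Young Bleo against Young Sham, or 6 to 60 by the adjusted p alone, with 0 to 1 lower and a median of 0.57 to 0.84. In Aged Bleo against Young Sham it gave 0 (without Aged Bleo 2) to 21 (without Aged Bleo 3) higher, 1 to 21 by the adjusted p alone, always 1 lower, and a median of 0.35 to 0.68. It gave 0 to 1 higher and a median of -0.040 (without Aged Sham 13) to 0.63 in Aged Sham against Young Sham. Against Aged Sham, Aged Bleo had 0 to 3 higher (3 without Aged Sham 13), 0 to 1 lower and a median of -0.11 to 0.57. Against Young Bleo it had none past both thresholds, 0 to 1 lower by the adjusted p alone and a median of -0.29 to 0.01. The difference of responses had 0 to 1 lower (1 without Young Bleo 20) and a median of -0.76 to -0.035. The mean share of counts ranged from 0.730% to 0.779% in Young Sham, 1.16% to 1.37% in Young Bleo, 0.707% to 1.06% in Aged Sham and 0.970% to 1.17% in Aged Bleo.

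In Young Bleo against Young Sham, limma voom called 10 members higher (10 by the adjusted p alone), a fit on the groups of the contrast 56 (57), gene length offsets 40 (44), expression level offsets 40 (41) and length with GC offsets 39 (43). Of these, the fit on the groups of the contrast and the length and length with GC offsets also called 1 member, Rps4l, lower. In Aged Bleo against Young Sham the same settings called 1 (1), 37 (38), 16 (20), 16 (16) and 16 (20) higher, edgeR 3 (3), and limma on log2(FPKM + 0.1) or log2(FPKM + 1) 4 each (4 each). Length offsets made 2 and length with GC offsets 1 member lower by the adjusted p alone in Aged Bleo against Young Bleo. The 4 libraries in which other short genes deviated most (Young Sham 22, Young Bleo 20, Aged Sham 13, Aged Bleo 2), or these and Young Bleo 19, were left out together as an alternative chosen after the data were seen. Young Bleo then had 69 (74) or 64 (67) higher, and Aged Bleo against Young Sham 12 (15) with 4 left out. Against Aged Sham, Aged Bleo had 12 (13) or 9 (9) higher, and against Young Bleo 32 (36) or 8 (8) lower. The difference of responses had 1 (1) lower either way, and the median of Aged Sham against Young Sham was -0.10 either way. The share of all genes called was not counted in these alternative fits. The causes of these changes were not tested. No result changed direction past the threshold. For the named genes, 595 values under other settings kept their side of the threshold, 43 lost a call and 7 gained one, and with a library left out these numbers were 293, 64 and 6. No paired analysis was possible because the groups share no replicate numbers. With 3 to 5 mice a group, a shift of the size seen between libraries of 1 group could be taken for a difference between groups. Against Young Sham, only Rps6, Rps19, Rps3a1, Rpsa, Rpl3 and Rpl4 in Young Bleo and Rps4l in Aged Bleo kept their call in every fit.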
